A study of Mus musculus with 29 samples.

Results

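The comparison described here set 3 libraries of fully grown oocytes from 4-week-old females (WT FGO 4W) against 3 libraries of growing oocytes from 2-week-old females (WT GO 2W), chosen by the sample labels alone, which makes 6 of the 29 libraries of the series. The WT mice were Dhx36fl/fl, so they carried the floxed alleles of Dhx36, a helicase gene, without a Cre. The other genotype, CKO, was Dhx36fl/fl; Zp3-Cre, in which the promoter of the zona pellucida gene Zp3 drives Cre recombinase from the onset of oocyte growth. Each library was made by Smart-seq2, a full-length poly(A) RNA method, from 10 oocytes in 1 tube, and no label says whether tubes came from separate animals. P-values therefore measure the spread between tubes. The WT FGO 3W group, 2 libraries of fully grown oocytes at 3 weeks, is given beside the others.

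During its growth phase the mouse oocyte enlarges many times over while arrested in meiotic prophase, builds its zona pellucida, acquires its maternal DNA methylation and stores the mRNA and protein that the egg and early embryo will use. Towards the end of growth transcription falls silent, the chromatin condenses around the nucleolus and the oocyte becomes able to resume meiosis. Stage and age moved together in this comparison, so growth, age of the female and any unlabelled batch cannot be told apart. Levels are CPM, a gene's share of a library's counted reads after scaling for library composition, so a change in RNA content per oocyte does not appear in them, and changes are log2 of FGO 4W over GO 2W with the standard error (SE) of the fit. A gene is called, and is said to have risen or fallen, when its edgeR quasi-likelihood p adjusted by Benjamini-Hochberg over all 21768 tested genes was under 0.05.

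The 6 libraries held between 17697507 and 26663037 counts, and replicates correlated with Pearson r of log2 CPM between 0.968 and 0.977 at GO 2W and between 0.955 and 0.969 at FGO 4W. Dhx36 itself stood at 64.0, 77.2 and 70.8 CPM at WT GO 2W and at 67.1, 73.9 and 64.9 CPM at WT FGO 4W (-0.04, edgeR adjusted p 0.995). In the libraries labelled CKO it stood at 66.6 to 94.2 CPM at GO 2W and 82.9 to 86.8 CPM at FGO 4W, so whole-gene counts show no loss there. The labels name no deleted exon, so these counts do not check the genotype. The 12 oocyte markers summed to between 21189 and 26337 CPM at GO 2W and between 18531 and 21510 CPM at FGO 4W. The 17 granulosa or cumulus cell markers summed to 65.9 to 83.4 CPM and 57.4 to 64.8 CPM, with Krt18 at 0 counts in all 6 libraries and Cyp19a1 at 27.1 to 39.5 CPM the largest of them. The 9 theca or stroma markers summed to at most 4.52 CPM in any library, with Col3a1 at 0. Of the 9 blood, immune or endothelial markers Ptprc, Cdh5 and the 3 globin genes were at 0 counts in all 6 libraries. Pecam1, at 42.9 to 49.7 CPM, made up nearly all of that list's sum of 44.9 to 51.9 CPM. No marker of these 3 other cell types was called by edgeR (0 of 27 tested), with 4 at an unadjusted p under 0.05 and 2 called by DESeq2, both of the granulosa list. Levels come from tubes of 10 oocytes, so fewer cells of a type and less RNA per cell cannot be told apart.

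The library of WT FGO 4W replicate 2 stood apart from the other 2 of its group. At genes of at least 20 CPM in the group, 16 lay at least 8-fold below both other replicates there and 1 lay at least 8-fold above, whereas the other 5 libraries of the comparison had 0 such genes. For 15 of these 17 genes its log2 level was nearer to the WT GO 2W mean than to the mean of the other 2 replicates. The genes were chosen for lying far from those 2 replicates, which favours this outcome, so it shows no likeness to GO 2W. For most of the 16 genes it lay below all 3 GO 2W libraries, as for Stk32a at 0.610 CPM against 75.7 to 91.5 CPM. The metallothionein gene Mt1 read 213 and 244 CPM in replicates 1 and 3 and 1.45 CPM in replicate 2, against 92.3 to 181 CPM at GO 2W. Xdh, which encodes xanthine dehydrogenase, read 11.96 and 4.26 CPM against 107 CPM in replicate 2, and 66.5 to 81.6 CPM at GO 2W. For the risers in which replicate 2 was the odd library, the change is given with and without it.

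From GO 2W to FGO 4W 302 genes rose and 235 fell, together 2.47% of the genes tested (1.39% and 1.08%), and 208 of the risers (0.956% of tested genes) and 160 of the fallers (0.735%) changed at least 2-fold. The median log2 change of all tested genes was 0.05. Most abundant mRNAs kept their share. Of 6351 genes with a mean of at least 20 CPM over both groups, 5331 (83.9%) had a 95% confidence interval that lay wholly within 2-fold in either direction. Among 6661 genes of at least 20 CPM in the higher group 255 were called (3.83%), and 20 of these changed at least 4-fold, of which 13 rose and 7 fell. The ranges of the 3 and 3 libraries were apart for 510 of the 537 calls, against 27.3% of all tested genes. Of the 537 calls, 145 (91 higher, 54 lower) held when each of the 6 libraries was left out in turn. The count of risers went to 155 without WT FGO 4W replicate 3, to 121 without WT GO 2W replicate 1 and to 132 without WT GO 2W replicate 2. The count of fallers went to 90, 91 and 119 in the same 3 cases.

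**Figure D1:**
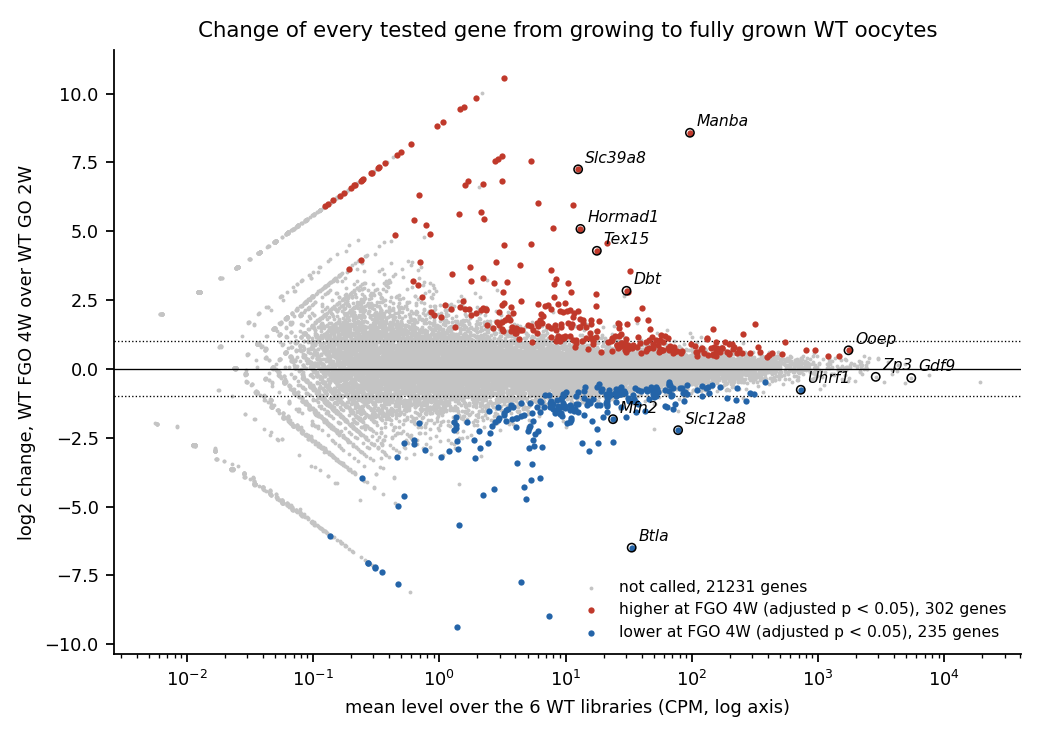
Log2 change from WT GO 2W to WT FGO 4W (vertical axis) against mean level in CPM (horizontal log axis) for every tested gene, with red and blue points for the 302 genes called higher and the 235 called lower, dotted lines at 2-fold and open rings on named genes. Most points of high level lie between the dotted lines, while Manba at 8.58 and Btla at -6.49 lie far outside them.

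The most abundant mRNAs of the oocyte were largely the same genes at both stages. Levels between genes are compared here as the authors' FPKM, which divide by gene length. H1f8, the oocyte linker histone, averaged 4008 FPKM (SD 57.8, n = 3) at GO 2W and 4287 FPKM (SD 280, n = 3) at FGO 4W. Ldhb, a lactate dehydrogenase subunit gene, averaged 3474 FPKM (SD 15.01) and 3003 FPKM (SD 188), and Gdf9, the growth factor by which the oocyte signals to its granulosa cells, 2778 FPKM (SD 148) and 2164 FPKM (SD 368). The same 9 genes were among the 10 highest in both groups; Dppa3 completed the list at GO 2W and Tcl1 at FGO 4W, and none of these 11 was called. The first of the 10, Rn18s-rs5, is a ribosomal RNA-related locus and ranged from 14476 to 31094 CPM over the 6 libraries.

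The largest rise was that of Manba, which encodes the lysosomal enzyme beta-mannosidase. It read 0.879, 0.202 and 0.348 CPM in the 3 GO 2W libraries and 214, 115 and 249 CPM in the 3 FGO 4W libraries, a log2 change of 8.58 (SE 0.99, edgeR adjusted p 6.75e-06). Every FGO 4W library lay far above every GO 2W library. The 12 highest and 12 lowest changes named here were chosen among genes whose 2 groups did not overlap. Absence of overlap in those genes is therefore given by the choice and is no further evidence. The next was Slc39a8, a zinc and manganese importer gene on the same chromosome, at 0.135, 0.404 and 0 CPM and then 15.2, 26.6 and 33.1 CPM (7.25, SE 1.45, edgeR adjusted p 0.00483). Its groups did not overlap either. Hormad1, which encodes a protein of the unsynapsed meiotic chromosome axis, read 0.812, 0.404 and 0.9753 CPM and then 19.7, 24.03 and 32.7 CPM (5.08, SE 0.48, edgeR adjusted p 4.33e-07). These 3 calls held without any 1 of the 6 libraries, with edgeR adjusted p up to 0.00029, 0.0467 and 2.5e-05.

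The largest fall was that of Btla, an inhibitory receptor gene known from lymphocytes. It read 68.3, 41.7 and 88.0 CPM at GO 2W and 0.762, 1.07 and 0.367 CPM at FGO 4W (-6.49, SE 0.99, edgeR adjusted p 0.000303), with no overlap. At WT MII 3W (metaphase II eggs) Btla read 25.8 to 59.5 CPM and Slc39a8 0.265 to 0.838 CPM, so neither kept its FGO 4W level. Manba (51.2 to 115 CPM) and Hormad1 (52.2 to 60.0 CPM) stayed high there. The promoters of Manba, Slc39a8, Hormad1 and Btla are shown because their transcripts differed between near absence and abundance in the comparison of GO 2W and FGO 4W. Transcription itself was not measured. Each promoter runs from 250 bases before to 50 bases after a transcription start in RefSeq (build GRCm38.p6), all on the plus strand. Capitals mark CACGTG, the E-box that MYC-family and other basic helix-loop-helix factors bind, and GCGGGA with its reverse complement TCCCGC, a core of E2F sites. These 2 motifs do not overlap. For Slc39a8 and Hormad1, each with 2 entries in the table, the first is printed.
Manba: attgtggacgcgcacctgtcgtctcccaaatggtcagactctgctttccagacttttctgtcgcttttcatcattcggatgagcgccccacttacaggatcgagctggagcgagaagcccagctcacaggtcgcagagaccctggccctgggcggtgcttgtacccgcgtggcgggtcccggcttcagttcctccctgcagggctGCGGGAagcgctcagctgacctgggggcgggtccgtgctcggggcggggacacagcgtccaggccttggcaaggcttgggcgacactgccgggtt
Slc39a8: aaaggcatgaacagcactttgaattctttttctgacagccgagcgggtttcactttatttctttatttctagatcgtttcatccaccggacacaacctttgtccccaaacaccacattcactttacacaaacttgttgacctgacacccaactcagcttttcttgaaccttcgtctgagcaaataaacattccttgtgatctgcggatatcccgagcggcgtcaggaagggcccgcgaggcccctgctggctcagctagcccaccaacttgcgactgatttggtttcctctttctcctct
Hormad1: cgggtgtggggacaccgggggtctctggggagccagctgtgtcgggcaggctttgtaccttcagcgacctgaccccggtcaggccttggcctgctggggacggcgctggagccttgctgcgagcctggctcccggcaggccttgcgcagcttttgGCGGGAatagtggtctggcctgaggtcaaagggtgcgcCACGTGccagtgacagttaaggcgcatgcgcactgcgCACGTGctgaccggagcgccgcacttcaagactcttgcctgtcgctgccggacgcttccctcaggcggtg
Btla: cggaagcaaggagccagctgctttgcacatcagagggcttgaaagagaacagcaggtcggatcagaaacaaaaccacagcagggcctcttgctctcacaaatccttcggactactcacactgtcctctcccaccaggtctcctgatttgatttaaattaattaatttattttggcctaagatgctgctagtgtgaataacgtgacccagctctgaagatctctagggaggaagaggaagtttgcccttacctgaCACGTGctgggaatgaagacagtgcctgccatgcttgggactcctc

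They lie at chr3:135485361-135485660, chr3:135825029-135825328, chr3:95559427-95559726 and chr16:45224087-45224386. Both Slc39a8 entries and the Btla window lie inside their genes, whose spans begin at 135816882 and 45223705. Which start the oocytes used was not determined. The Manba promoter held GCGGGA and 23 CpG dinucleotides, and the Hormad1 promoter CACGTG at 2 places, GCGGGA at 1 and 24 CpG. The first Slc39a8 entry held neither motif and 12 CpG, its second entry CACGTG and 9 CpG, and the Btla promoter CACGTG and 5 CpG, against a median of 16 CpG in 15250 promoters of tested genes. CACGTG was found, on either strand, in 7.24% of all 27025 promoters of the table, in 8.99% of those of tested genes, in 9.36% of 203 promoters of risers and in 11.5% of 183 of fallers. GCGGGA was found in 20.02%, 28.4%, 34.5% and 36.6% of the same sets. The 2 motifs were thus about as frequent in promoters of fallers as in those of risers, with no test made.

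The other large risers had varied roles. Dbt, a subunit gene of the mitochondrial complex that breaks down branched-chain amino acids, read 7.61, 5.71 and 8.99 CPM and then 50.02, 54.996 and 54.9 CPM (2.84, SE 0.32, edgeR adjusted p 4.55e-06). Eif2ak3, the gene of the stress sensor PERK of the endoplasmic reticulum, went from 5.65, 5.81 and 7.04 CPM to 21.6, 18.6 and 23.95 CPM (1.79, SE 0.25, edgeR adjusted p 0.000102). Lzts1, a leucine zipper gene known as a tumour suppressor, went from 13.5, 13.6 and 15.8 CPM to 72.0, 72.5 and 54.0 CPM (2.21, SE 0.48, edgeR adjusted p 0.0107). In all 3 genes the FGO 4W libraries lay close together and clear of the GO 2W libraries. Fstl5, a follistatin-like gene, rose by 2.28 (SE 0.45) and Rp9, a splicing-related gene mutated in a form of retinitis pigmentosa, by 1.82 (SE 0.32). H2-T-ps, a histocompatibility locus, rose by 1.77 (SE 0.38). The calls of Lzts1 (edgeR adjusted p 0.0686 and 0.0605) and H2-T-ps ended without 1 library, for Lzts1 without WT GO 2W replicate 1 or 2. For H2-T-ps it ended without WT GO 2W replicate 1 (edgeR adjusted p 0.0664) or WT FGO 4W replicate 3 (0.0627).

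For several risers WT FGO 4W replicate 2 was the odd library. Lypd3, a gene of the Ly6 family of surface proteins, read 8.52, 6.67 and 8.57 CPM at GO 2W and 75.6, 8.77 and 79.9 CPM at FGO 4W, so replicate 2 lay at the GO 2W level. Its log2 change was 2.79 (SE 0.54, edgeR adjusted p 0.00383), and 3.29 without replicate 2. Tex15, a germ cell gene of meiotic recombination and transposon silencing, read 1.69, 1.87 and 1.60 CPM and then 49.6, 3.55 and 47.7 CPM (4.29, SE 0.77, edgeR adjusted p 0.00162; 4.82 without replicate 2). The pseudogene Rps2-ps13 read 18.5, 0.801 and 48.8 CPM at FGO 4W after 0.202 to 0.643 CPM at GO 2W (5.95, SE 0.85; 6.52 without replicate 2), and its reads may be shared with the parent gene Rps2. Ero1a, the endoplasmic reticulum oxidase gene, read 1.15, 1.21 and 1.15 CPM and then 17.03, 1.60 and 23.8 CPM (3.59, SE 0.67, edgeR adjusted p 0.00236; 4.12 without replicate 2). Fstl5 and Rp9 also had their lowest FGO 4W level in replicate 2, at 9.76 and 24.4 CPM, and changed by 2.69 and 2.18 without it. In all 6 of these genes replicate 2 was the lowest FGO 4W library. It lay above the 3 GO 2W libraries in each, which the choice of the genes required for all of them except Ero1a.

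Among the named falls of genes above 20 CPM, those after Btla were at most 2.99 in size on the log2 scale. Slc12a8, a solute carrier gene reported as a nicotinamide mononucleotide transporter, went from 114, 180.3 and 90.2 CPM to 24.99, 31.4 and 25.9 CPM (-2.22, SE 0.25, edgeR adjusted p 4.55e-06). Mfn2, the mitofusin gene of mitochondrial fusion and of contacts with the endoplasmic reticulum, went from 41.5, 38.2 and 31.4 CPM to 12.2, 10.1 and 9.04 CPM (-1.83, SE 0.23, edgeR adjusted p 2.09e-05). Exd1, a partner gene of the piRNA pathway, went from 59.6, 54.7 and 47.997 CPM to 18.9, 16.1 and 19.3 CPM (-1.58, SE 0.25, edgeR adjusted p 0.000514). The groups were well separated in these 3 genes, and their calls held without any 1 library. Tex19.2, of a mammalian germ cell gene pair that restrains retrotransposons, fell by 2.99 on the log2 scale (SE 0.59, edgeR adjusted p 0.00432), from 33.7, 15.8 and 31.8 CPM to 6.02, 2.06 and 2.17 CPM.

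Other large falls depended on single libraries. Gli3, a transcription factor gene of hedgehog signalling, read 16.6, 52.2 and 24.8 CPM and then 2.44, 5.68 and 6.39 CPM (-2.68, SE 0.58), but its edgeR adjusted p was 0.0586 without WT FGO 4W replicate 1 and 0.0851 without WT GO 2W replicate 2. Zfp869, a zinc finger gene, fell by 2.17 on the log2 scale (SE 0.47), with an edgeR adjusted p of 0.0757 without WT FGO 4W replicate 3. Steap4, a metalloreductase gene, fell by 1.73 on the log2 scale (SE 0.38), with an edgeR adjusted p of 0.0576 without WT FGO 4W replicate 1 and 0.0501 without replicate 2. The exostosin-like gene Extl1 (-2.64), the minus-end kinesin gene Kifc1 (-1.91), the neuronal pentraxin gene Nptx2 (-1.73) and the leucine breakdown gene Ivd (-1.67) were called with all libraries. Each of these 4 calls ended in at least 4 of the 6 cases in which 1 library was left out, with edgeR adjusted p up to 0.189, 0.233, 0.190 and 0.162.

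**Figure D2:**
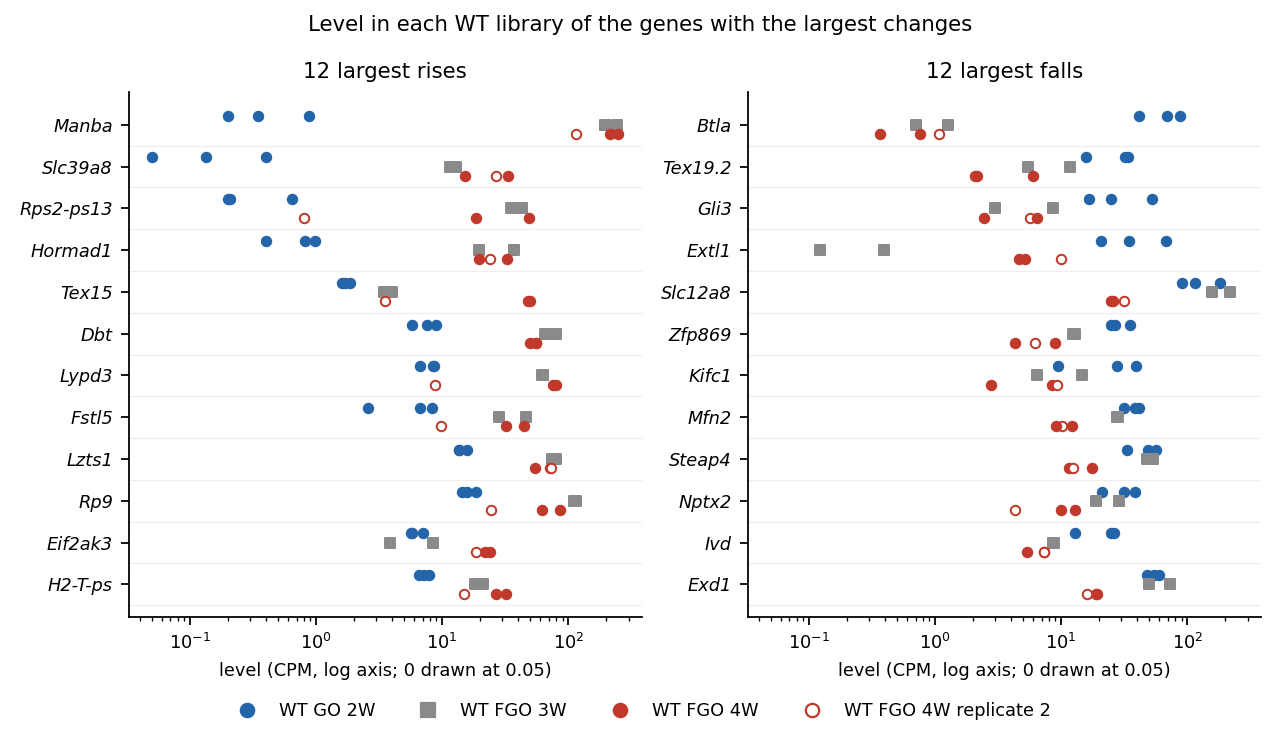
Level in CPM (log axis, a level of 0 drawn at 0.05) in each WT library for the 12 largest rises and the 12 largest falls among named genes, with blue circles for WT GO 2W, grey squares for WT FGO 3W, red circles for WT FGO 4W and an open red circle for WT FGO 4W replicate 2. The open circle sits at 8.77 CPM for Lypd3 and 3.55 CPM for Tex15, beside the GO 2W libraries, and the grey squares of Slc12a8 lie at 217 and 157.8 CPM, above the red circles.

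The 42 lists of related genes held 1495 distinct tested genes, of which 48 (3.21%) were called against 2.47% of all genes, so the lists as a whole stood near the background. In 14 of those 48 genes the call held without any 1 library. Of 43 tested genes of meiotic prophase, synapsis and recombination 3 rose, 0 fell and 40 were not called (median log2 change 0.13). The risers were Hormad1, Tex15 and Ccnb1ip1, the crossover-promoting HEI10 gene, which went from 3.86, 3.08 and 4.04 CPM to 18.7, 9.04 and 18.7 CPM (2.08, SE 0.44, edgeR adjusted p 0.00741, and 0.0537 without WT GO 2W replicate 2). The groups did not overlap. Among the other 40 genes Sycp3, of the synaptonemal complex, had a log2 change of -0.59 (95% interval -1.24 to 0.06), the recombinase gene Dmc1 -1.83 (-3.17 to -0.49, adjusted p 0.148 by edgeR) and Msh4 0.80 (0.27 to 1.34, adjusted p 0.104 by edgeR).

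Oocyte transcription factors and zona genes held 1 call between them. All 21 tested oocyte transcription factor genes were not called by edgeR (0 of 21, median log2 change -0.26), with 6 at an unadjusted p under 0.05 and 1 called by DESeq2. Nobox, a homeobox factor needed for follicle growth, had a change of -0.26 (95% interval -0.61 to 0.09) at 485.7 to 779 CPM, and Figla, the activator of zona genes, -0.14 (-0.90 to 0.62). Of 15 tested zona pellucida and cortical granule genes 1 rose and 14 were not called (median -0.29). Zp1, Zp2 and Zp3, the zona genes, had changes of -0.45, -0.48 and -0.29, with adjusted p of 0.639, 0.497 and 0.706 by edgeR. All 3 FGO 4W libraries lay below all 3 GO 2W libraries for each, but ranges were apart, in either direction, in 27.3% of all tested genes. The riser was the vesicle fusion gene Vamp3, from 37.0, 33.2 and 39.9 CPM to 63.8, 58.4 and 64.0 CPM (0.76, SE 0.18, edgeR adjusted p 0.017). Its edgeR adjusted p went up to 0.110 on leaving out 1 library, and was over 0.05 without WT FGO 4W replicate 1 or 3 or WT GO 2W replicate 1 or 2.

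Among 14 oocyte-secreted factors and their partners 1 rose and 1 fell (median -0.00). Kit, the receptor through which granulosa cells support oocyte growth, went from 468, 401 and 452 CPM to 353, 305 and 297 CPM (-0.47, SE 0.12, edgeR adjusted p 0.0306). The secreted protein gene Oosp1 went from 1198, 1165 and 1313 CPM to 1429, 1785 and 1881 CPM (0.47, SE 0.13, edgeR adjusted p 0.0496). Neither gene's groups overlapped, but the calls ended in 4 and 5 of the 6 cases of 1 library left out, with edgeR adjusted p up to 0.159 and 0.234. Gdf9 and Bmp15, the paired growth factors of the oocyte, had changes of -0.33 (95% interval -0.85 to 0.19) and -0.03 (-0.37 to 0.32).

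Of 15 genes of the subcortical maternal complex and cytoplasmic lattices, the protein stores of the egg, 1 rose and 1 fell (median -0.18). Ooep, which encodes a small scaffold protein of the complex, read 1271, 1321 and 1431 CPM and then 1934, 2153 and 2341 CPM (0.68, SE 0.15, edgeR adjusted p 0.00933). Its groups were clearly apart, and the edgeR adjusted p was 0.0629 without WT FGO 4W replicate 3 and 0.0683 without WT GO 2W replicate 1. Its partners Nlrp5 (-0.38), Tle6 (-0.33) and Khdc3 (-0.39) were not called, nor was Padi6 (-0.50, 95% interval -0.85 to -0.15). Among 38 tested members of multi-copy oocyte families 3 rose and 0 fell (median 0.13): Tcl1b4, Tcl1b5 and the homeobox gene Obox7. Tcl1b4, of the Tcl1 kinase co-activator family, read 148, 150.0 and 177 CPM and then 234, 310.1 and 241 CPM (0.73, SE 0.14, edgeR adjusted p 0.00279, at most 0.0323 with 1 library left out). The calls of Tcl1b5 and Obox7 ended in 6 and 5 of the 6 such cases (edgeR adjusted p up to 0.208 and 0.215). Both highest values came without WT FGO 4W replicate 2, with changes of 0.60 and 0.58 in place of 0.75 and 0.78. Members of these families share sequence, so reads may have been split between them.

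Oocyte DNA methylation is laid down during growth. Of 29 tested writers, readers and erasers of DNA methylation 2 fell and 0 rose (median -0.28), beside 1.08% of all tested genes that fell. Uhrf1, which recruits the maintenance methyltransferase to DNA, read 1014, 987 and 747 CPM and then 579, 569.8 and 476 CPM (-0.76, SE 0.14, edgeR adjusted p 0.00256). The groups did not overlap and the call held without any 1 library. Kdm1b, the histone demethylase needed for maternal imprints, read 458, 334 and 431 CPM and then 277, 203 and 174 CPM (-0.90, SE 0.21, edgeR adjusted p 0.0145). Its edgeR adjusted p was over 0.05 without WT FGO 4W replicate 2 or 3 or WT GO 2W replicate 1 or 3, and at most 0.119. Dnmt1, the maintenance methyltransferase gene, was not called at -0.74 (95% interval -1.17 to -0.31, adjusted p 0.0588 by edgeR), and Dnmt3a and Dnmt3l, of the de novo enzyme, had changes of 0.08 (-0.37 to 0.53) and -0.15 (-0.54 to 0.25).

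Of 52 chromatin remodelling and histone modifier genes 2 rose and 2 fell (median -0.02), beside 2.47% of all tested genes called. Hdac1, a histone deacetylase gene, went from 18.3, 18.7 and 16.2 CPM to 7.85, 7.93 and 6.10 CPM (-1.28, SE 0.27, edgeR adjusted p 0.00762, and 0.0614 without WT FGO 4W replicate 3). The Polycomb genes Pcgf1 (0.54) and Phf1 (-1.06) and the histone variant gene H3f3b (0.69) were also called. Those 3 calls ended in 3, 5 and 5 of the 6 cases of 1 library left out, with edgeR adjusted p up to 0.101, 0.308 and 0.158. Among 33 genes of small RNA and retrotransposon silencing 2 fell and 0 rose (median -0.23). Beside Exd1 this was Mov10, an RNA helicase gene that restrains retroelements, at 14.9, 14.4 and 12.5 CPM and then 4.95, 5.03 and 3.78 CPM (-1.60, SE 0.26, edgeR adjusted p 0.000808). Both calls held without any 1 library.

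Among genes of meiotic arrest and resumption, a system of kinases that hold the oocyte in prophase, 0 of 38 rose and 1 fell (median 0.03). The faller was Prkacb, a catalytic subunit gene of protein kinase A, from 11.1, 7.78 and 6.86 CPM to 3.12, 3.66 and 3.09 CPM (-1.38, SE 0.23, edgeR adjusted p 0.001, at most 0.0176 with 1 library left out). The groups were apart. Gpr3, the receptor that keeps the oocyte arrested, had a change of 0.15 (95% interval -0.21 to 0.51), the cyclin gene Ccnb1 0.31 (-0.24 to 0.87) and Mos, the kinase of metaphase arrest, 0.36 (-0.15 to 0.87). Of 51 genes of the spindle, cohesion and metaphase II arrest 1 rose, the kinetochore gene Ndc80 (0.75, SE 0.18, edgeR adjusted p 0.022). Its call ended in 4 of the 6 cases of 1 library left out, with a change of 0.49 and an edgeR adjusted p of 0.194 without WT FGO 4W replicate 2. Parp1, of single-strand break repair, was one of 2 fallers among 37 genes of DNA damage and repair, at 51.7, 47.4 and 42.5 CPM and then 24.2, 20.6 and 21.9 CPM (-1.09, SE 0.18, edgeR adjusted p 0.000811, at most 0.00985 with 1 library left out). The other, the Fanconi anaemia helicase gene Fancm, had an edgeR adjusted p of 0.0496 that rose over 0.05 without any of the 6 libraries.

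Of 87 tested cytoplasmic ribosomal protein genes 1 rose (median 0.23), of 78 mitochondrial ribosomal protein genes 2 rose (median 0.17), of 93 respiratory chain genes 1 rose and 1 fell (median 0.14), and of 48 proteasome genes 1 rose (median 0.13). Rpl37 read 139, 148 and 147 CPM and then 262, 270.1 and 285 CPM (0.91, SE 0.19, edgeR adjusted p 0.00642), with no overlap. The retrotransposed copy Rpl37rt, which shares its sequence, rose from 148, 153 and 165 CPM to 439, 465 and 544 CPM (1.64, SE 0.19), so the 2 genes' reads may be mixed. Psmd9, a chaperone gene of proteasome assembly, read 126, 128 and 118 CPM and then 234, 252 and 240.1 CPM (0.97, SE 0.15, edgeR adjusted p 0.000416). Both calls held without any 1 library. Of 87 genes of RNA polymerase II, mediator and the general factors 4 rose and 0 fell: Taf7 (0.73), Med22 (0.59), Med31 (0.59) and Gtf2b (0.50). These 4 calls ended in 3, 5, 4 and 6 of the 6 cases of 1 library left out, with edgeR adjusted p up to 0.0790, 0.159, 0.272 and 0.228.

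Of 38 endoplasmic reticulum chaperone genes 1 rose and 2 fell (median -0.08). Beside Ero1a these were Hyou1, an Hsp70-like chaperone gene, at 70.8, 86.7 and 44.9 CPM and then 36.0, 34.1 and 29.4 CPM (-1.02, SE 0.23, edgeR adjusted p 0.0116), and the ubiquitin ligase gene Syvn1 (-0.68). The edgeR adjusted p of Hyou1 was 0.0760, 0.0574 and 0.116 without WT FGO 4W replicate 3, WT GO 2W replicate 1 and WT GO 2W replicate 2, and Syvn1 lost its call in each of the 6 cases. In the mRNA storage and polyadenylation list 0 of 44 genes were called by edgeR (median -0.04; 6 at an unadjusted p under 0.05 and 2 by DESeq2), with Zar1 at -0.11 (95% interval -0.69 to 0.46) and Cpeb1 at -0.06 (-0.42 to 0.30). Glycolysis, cholesterol synthesis, calcium and egg activation, kinesin, imprinted and zygotic genome activation genes also had 0 calls by edgeR in lists of 22, 24, 30, 33, 31 and 35 tested genes. In the same order 1, 2, 5, 5, 5 and 6 of them had an unadjusted p under 0.05, and DESeq2 called 0, 0, 0, 2, 1 and 0. Of 36 tested Pramel genes, a germ cell family, 2 fell from low levels, Pramel28 from 2.00, 2.48 and 3.90 CPM to 0.152, 0 and 0 CPM (edgeR adjusted p 0.000165) and Pramel38 from 3.75, 2.37 and 5.02 CPM to 0.190, 0.953 and 0.367 CPM (edgeR adjusted p 0.0056). Pramel genes share sequence, so their reads may be mixed.

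The other lists held 0 to 2 calls each. Oocyte Nlrp genes and aminoacyl-tRNA synthetase genes had 0 of 13 and 0 of 20 by edgeR, with 0 and 1 at an unadjusted p under 0.05 and 0 and 1 by DESeq2. Ribosome biogenesis held 2 fallers among 75 genes, the nucleolar gene Nol6 (-0.96) and Ubtf (-1.15), a factor of ribosomal RNA transcription, and mRNA decay 1 riser and 1 faller among 47, Zfp36 (1.07) and the decapping scaffold gene Edc4 (-0.70). Single fallers were Ptgfrn (-1.83) among 16 genes of the egg membrane, the pyruvate carboxylase gene Pcx (-1.39) among 29 of the TCA cycle, the helicase gene Dhx15 (-0.65) among 75 of the spliceosome and Tuba1c (-0.65) among 17 tubulins. Single risers were the origin recognition gene Orc6 (0.60) among 40 of the cell cycle and Eef1e1 (0.72) among 54 translation factors. The mitochondrial risers were Mrps2 (0.68), Mrpl53 (0.73) and Ndufaf4 (0.57), and the respiratory chain faller was Uqcrc1 (-1.32). Each of these 14 calls ended when 1 or more single libraries were left out, and the highest edgeR adjusted p so reached lay between 0.0932 for Edc4 and 0.266 for Dhx15.

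**Figure D3:**
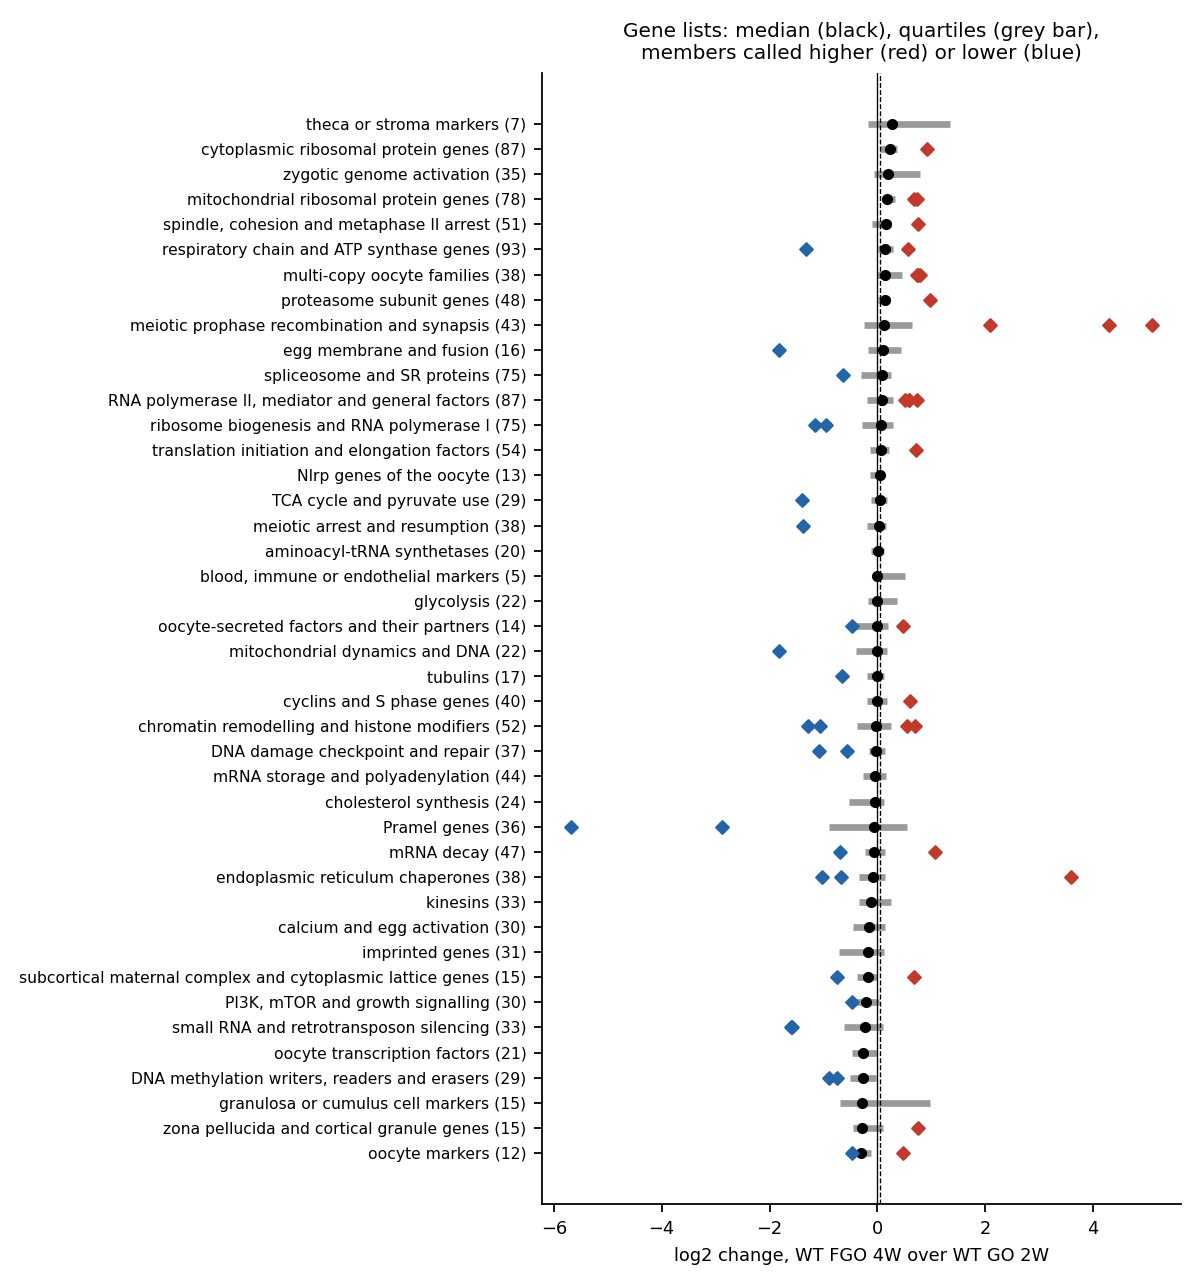
Log2 change from WT GO 2W to WT FGO 4W of the 42 gene lists (number of tested genes in brackets), with a black point for the median of each list, a grey bar for its quartiles and red or blue diamonds for the members called higher or lower. The medians lie near the dashed line of all tested genes (0.05), from -0.31 for the oocyte markers to 0.27 for the theca or stroma markers, and most lists hold 0 to 2 diamonds.

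Changes also differed by gene length and base composition. Among genes of at least 20 CPM the median log2 change was 0.19 in the quintile of the shortest genes (320 to 1840 bases, as the authors' FPKM imply), 0.09, 0.03 and -0.04 in the next 3 and -0.07 in the quintile of the longest. The shortest quintile, of 1271 genes, held 40 risers and 6 fallers. The next 3, of 1270 genes each, held 28 and 15, 28 and 21, and 12 and 28, and the longest, of 1270 genes, 13 and 25. All 6351 genes of at least 20 CPM together held 216 calls. Among the lists, cytoplasmic ribosomal protein genes, with a median length of 862 bases, had a median change of 0.23. Not every list followed the order of length. Oocyte markers had a median change of -0.31 at 2453 bases, a length within the second quintile (1842 to 3003 bases), whose median was 0.09. By GC content of the longest GENCODE transcript, medians went from 0.15 in the lowest quintile to -0.09 in the highest. The libraries of the 2 groups overlapped there. In the lowest GC quintile the FGO 4W libraries stood at 0.06, 0.19 and 0.17 against the GO 2W mean, and the GO 2W libraries at 0.03, -0.12 and 0.09. In the highest they stood at -0.09, -0.06 and -0.09, and at -0.02, 0.09 and -0.07. Against the GO 2W mean the 3 FGO 4W libraries had medians of 0.11, 0.23 and 0.23 in the shortest quintile, above the 3 GO 2W libraries (-0.04, 0.00 and 0.05). The WT FGO 3W libraries stood at 0.17 and 0.02. The part of length and GC in the changes of single genes was not tested.

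**Figure D4:**
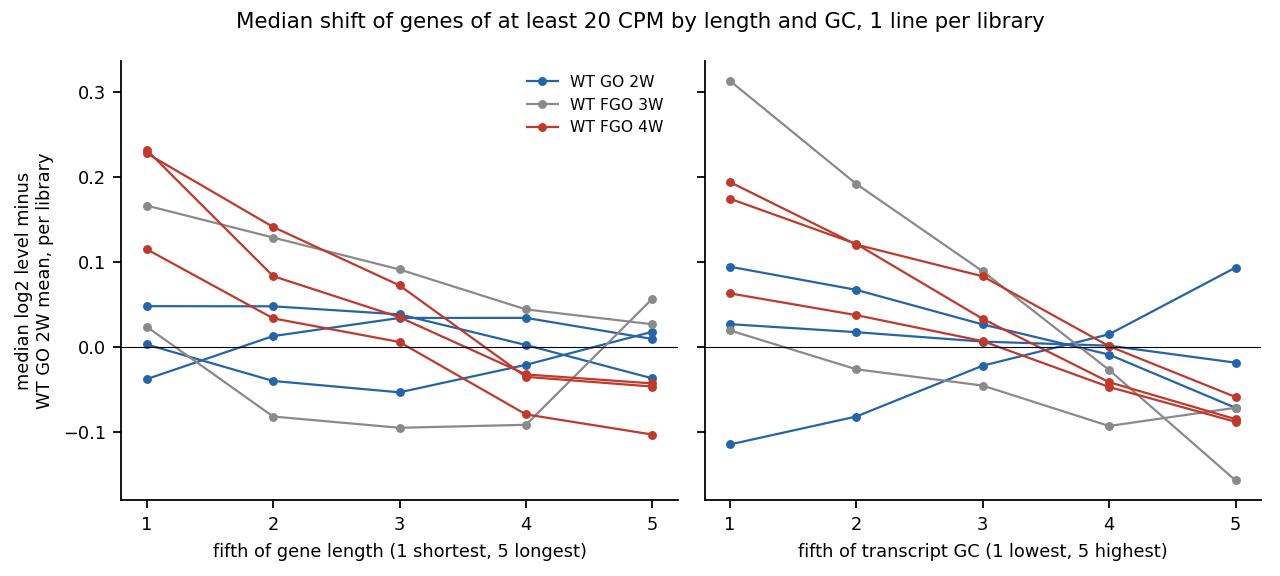
Median log2 level of genes of at least 20 CPM minus their WT GO 2W mean (vertical axis) in quintiles of gene length (left) and of transcript GC (right), with 1 line per library, blue for WT GO 2W, grey for WT FGO 3W and red for WT FGO 4W. The red lines fall from 0.11 to 0.23 in the shortest quintile to between -0.10 and -0.04 in the longest, and the blue lines stay within 0.12 of 0.

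Some called genes lay next to each other. The following 2 stretches were picked after their values were seen and are described without a test. On chromosome 3 (GRCm38, 135307651 to 135888572) 9 genes were tested and 3 called. Slc9b2, a sodium/proton exchanger gene, fell from 8.89, 15.6 and 5.85 CPM to 1.30, 0.267 and 0.257 CPM (edgeR adjusted p 0.00894, and up to 0.0679 without WT FGO 4W replicate 3 or WT GO 2W replicate 2). Manba and Slc39a8 rose. The genes between them, among them Slc9b1 (0.05), Cisd2 (0.16), Ube2d3 (-0.18) and Nfkb1 (-0.01), were not called. On chromosome 7 (24193215 to 24641118) 21 genes were tested and 8 rose, with 0 fallers. These were the zinc finger genes Zfp111 (2.10), Zfp109 (3.08), Zfp108 (0.97) and Zfp575 (5.63), with Kcnn4 (1.49), Pinlyp (1.23), Ethe1 (1.56) and Lypd3 (2.79). Zfp109 read 2.74, 0.303 and 1.99 CPM and then 8.15, 32.5 and 3.01 CPM, highest in FGO 4W replicate 2, and its change was 1.69 without that library (edgeR adjusted p 0.281). The calls of Zfp111, Zfp108, Zfp575 and Lypd3 held without any 1 of the 6 libraries, whereas those of Zfp109, Kcnn4, Pinlyp and Ethe1 ended in 4, 4, 6 and 3 of the 6 cases (edgeR adjusted p up to 0.281, 0.179, 0.216 and 0.137). Zfp108 was the most abundant, at 105, 90.3 and 120.4 CPM and then 187, 249 and 182 CPM. Its neighbours Zfp61 (-0.04) and Xrcc1 (-0.33) were not called.

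Fully grown oocytes at 3 weeks did not always stand with those at 4 weeks. Their comparison with GO 2W uses the same GO 2W libraries, so the values are only set side by side. Manba read 243 and 196 CPM, Hormad1 37.0 and 19.5 CPM, Dbt 80.3 and 65.6 CPM and Lypd3 61.3 and 62.7 CPM at WT FGO 3W, all at the FGO 4W side. Btla, at 1.26 and 0.700 CPM, was low there too. Slc12a8, by contrast, read 217 and 157.8 CPM, above the 24.99 to 31.4 CPM of FGO 4W (FGO 4W over FGO 3W -2.77, edgeR adjusted p 2.73e-07). Exd1 read 73.2 and 49.8 CPM (-1.77, edgeR adjusted p 0.000514), Mfn2 28.0 and 27.8 CPM (-1.42, edgeR adjusted p 0.00195) and Steap4 53.1 and 48.1 CPM (-1.87, edgeR adjusted p 0.0249). In these 4 genes the 3-week fully grown oocytes stood with, or near, the 2-week growing oocytes. Eif2ak3 read 3.85 and 8.40 CPM (1.80, edgeR adjusted p 0.000775), at the GO 2W level, and Extl1 0.395 and 0.124 CPM (4.63, edgeR adjusted p 0.0156), below both other groups. Tex15 read 3.99 and 3.44 CPM, close to the 3.55 CPM of FGO 4W replicate 2. Tex15 did not pass the test between the 2 ages of fully grown oocytes (3.18, edgeR adjusted p 0.0960).

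The same step in CKO oocytes, GO 2W to FGO 4W with 3 and 3 other libraries, gave 3726 calls (17.1% of the genes tested), 1662 higher (7.64%) and 2064 lower (9.48%). Of the WT calls, 177 were also called in CKO in the same direction, which is 33.0% of the WT calls and 4.75% of the CKO calls, and 51 in the opposite direction. The difference between the 2 changes itself passed the test in 1170 genes (5.37%), of which 417 (1.92%) had the more positive change in CKO and 753 (3.46%) the more positive change in WT. Manba did not pass it, with a change of 6.53 in CKO (difference adjusted p 0.378 by edgeR), and neither did Slc39a8 at 5.66 (0.762), Exd1 at -1.44 (0.903), Mov10 at -1.47 (0.917), Kdm1b at -0.94 (0.984) or Uhrf1 at -0.57 (0.710). Hormad1 passed. It stayed at 0.401, 0.333 and 0.335 CPM in CKO GO 2W and 0.308, 0.0692 and 0.680 CPM in CKO FGO 4W, while it rose in WT (difference -5.15, SE 0.73, edgeR adjusted p 4.06e-05). Lypd3 went from 37.0, 45.6 and 39.5 CPM down to 2.38, 2.18 and 3.74 CPM in CKO, and Dbt from 37.9, 53.1 and 43.02 CPM down to 12.9, 13.7 and 10.2 CPM, both against a rise in WT. The CKO GO 2W libraries held both mRNAs above every WT GO 2W library. The libraries labelled CKO carried Zp3-Cre and the WT libraries did not, so effects of the floxed alleles' recombination and of Cre itself cannot be told apart.

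**Figure D5:**
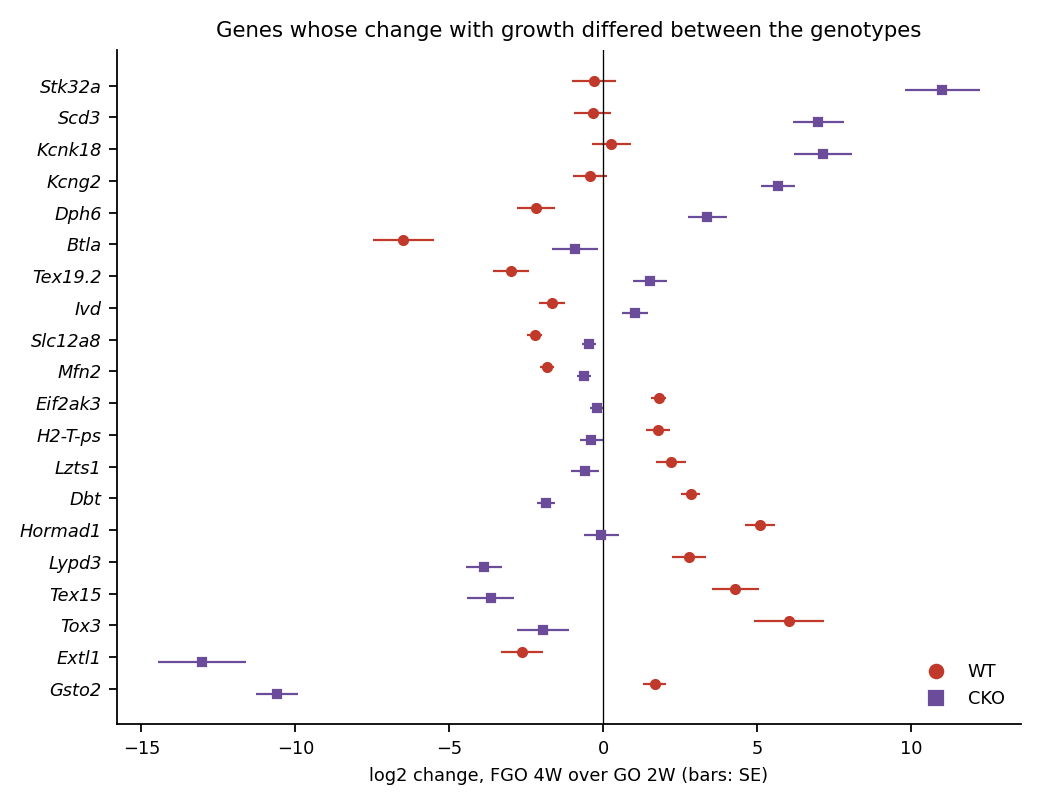
Log2 change from GO 2W to FGO 4W (bars, SE) in WT (red circles) and CKO (purple squares) for the named genes whose change differed between the genotypes by the interaction test. Hormad1 rose by 5.08 in WT and stood at -0.07 in CKO, and Stk32a stood at -0.30 in WT and 11.01 in CKO.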

How the data were processed

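Per the submitters' processing notes, the build was mm10 and the tools were HISAT2, featureCounts, SAMtools, FastQC and Trim Galore; versions, strand setting and annotation are not given in the sources used here. The values are counts per gene that the authors deposited as raw, whole numbers. The deposited FPKM equal each count divided by gene length and library total (checked on 10617 genes, tolerance 1e-06), and were used for levels between genes, for gene lengths and in limma. The protocol mentions ERCC spike-ins, but the table held 0 spike-in rows, so only relative levels are available. Of counts between 1 and 20, 83.0% were even numbers.

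Counts of 29 libraries in 10 groups entered 1 model in edgeR 4.0.16 (R 4.3.3): TMM scaling, the filterByExpr minimum count of 10 (21768 of 49997 genes kept), trended dispersion and quasi-likelihood F tests on 19 residual and 8.308 prior degrees of freedom, with Benjamini-Hochberg adjustment over all tested genes. The standard error is the log2 change divided by the square root of F. The script was tested on simulated data. limma 3.58.1 and DESeq2 1.42.0 served as alternatives, listed with leave-one-out and other filters, scalings and sets of libraries in the closing text. Named genes were the 12 highest and 12 lowest called changes (no predicted names, ranges apart, a higher group mean of at least 20 CPM), up to 4 called members per list by adjusted p, the 10 highest mean FPKM of each group, the 5 highest and 5 lowest differences between CKO and WT, and Dhx36; others named were chosen after their values were seen. Genes and lists were chosen with earlier results of these data known. Replicate numbers were not used to pair the samples in the main fit, since no label says that a number marks a shared animal or day. Columns of other samples left unused numbered 0. The intervals of log2 changes come from the edgeR fit and cover the spread between tubes, while the ratio interval of Gsto2 and the floor of Extl1 cover counting error only. Both take counts as independent, which the mostly even low counts leave unsure.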

Additional observations from a re-analysis of the deposited data

Results flagged for a closer look

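The results in this section are those in which the change from GO 2W to FGO 4W differed between CKO and WT by an interaction term in the edgeR model, with Benjamini-Hochberg adjustment over 21768 genes. Each value is the log2 change in CKO minus that in WT. The WT risers and fallers listed were chosen for large changes in the same WT libraries. That choice favours negative differences for risers and positive ones for fallers. The test was passed by 1170 genes. Of the 20 genes listed below, 19 kept the call without any 1 of the 12 WT and CKO libraries; Mfn2 lost it without WT FGO 4W replicate 3, WT GO 2W replicate 1 or 2, CKO GO 2W replicate 1 or CKO FGO 4W replicate 2 (edgeR adjusted p up to 0.0697). No explanation was weighed.

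Among the genes that rose in WT the difference was -5.15 for Hormad1, -7.95 for Tex15, -4.70 for Dbt, -6.67 for Lypd3, -2.81 for Lzts1, -1.99 for Eif2ak3 and -2.16 for H2-T-ps. Tex15 stood at 28.5, 24.3 and 17.04 CPM in CKO GO 2W and 1.38, 2.97 and 1.10 CPM in CKO FGO 4W, opposite to its rise in WT. Lzts1 stood at 138, 130.3 and 147 CPM and then 91.2, 95.5 and 86.2 CPM in CKO. Eif2ak3 stood at 36.3 to 39.9 CPM and then 31.8 to 35.2 CPM there, above all 6 WT libraries of these stages. Tox3, which encodes a high-mobility-group protein, differed by -7.99, from 25.4, 28.2 and 22.1 CPM to 6.85, 7.12 and 5.57 CPM in CKO. In WT it went from 0.101 to 0.304 CPM to 14.6, 0 and 20.97 CPM, with replicate 2 of WT FGO 4W at 0.

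Gsto2, a glutathione transferase gene, differed by -12.27. In CKO its counts summed to 4699 at GO 2W and 2 at FGO 4W, a ratio of 1830.04 after scaling (exact 95% interval 506 to 15116, counting error only), while in WT it went from 7.34, 8.99 and 3.55 CPM to 22.8, 16.9 and 23.5 CPM. The exact size in CKO rests on those 2 counts. The interval takes counts as independent and was not adjusted for the mostly even low counts seen in the 6 WT libraries.

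Among the genes that fell in WT the difference was 5.57 for Btla, 4.51 for Tex19.2, 1.76 for Slc12a8, 1.19 for Mfn2 and 2.69 for Ivd. Btla stood at 81.9, 80.9 and 86.3 CPM and then 39.8, 48.2 and 43.2 CPM in CKO, while the WT FGO 4W libraries read at most 1.07 CPM. Tex19.2 stood at 9.92, 7.03 and 12.7 CPM and then 33.2, 41.5 and 10.7 CPM in CKO. Slc12a8 stood at 30.4, 37.0 and 37.7 CPM and then at 24.8 to 26.1 CPM in CKO, near the level of WT FGO 4W at both stages. Extl1 differed by -10.39 in the fit, which is no bound, since it was at 0 counts in all 3 CKO FGO 4W libraries against 3535 counts in CKO GO 2W. With 3 counts summed over the 3 libraries as the floor, it was at least 918-fold lower.

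The highest differences were 11.31 for the kinase gene Stk32a, 7.33 for the desaturase gene Scd3, 6.89 for the potassium channel gene Kcnk18, 6.09 for the channel subunit gene Kcng2 and 5.57 for Dph6, of diphthamide synthesis. Stk32a stood at 0 to 0.115 CPM in CKO GO 2W and 156, 148 and 149 CPM in CKO FGO 4W. Dph6 stood at 14.8 to 16.4 CPM and then 151 to 170.2 CPM in CKO, against a change of -2.18 in WT that was not called (edgeR adjusted p 0.0520). In the 3 WT FGO 4W libraries Stk32a read 84.6, 0.610 and 117 CPM, with replicate 2 far below the others.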

How the results depend on the processing

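The counts of risers, fallers, risers of at least 2-fold and fallers of at least 2-fold (302, 235, 208 and 160) were 480, 378, 332 and 260 with 1 dispersion for all genes and 662, 532, 379 and 290 with DESeq2. They were 432, 518, 325 and 325 with no filter on low counts, and 450, 483, 233 and 240 in the 6 libraries alone. With limma on log2(FPKM + 1) they were 501, 484, 170 and 122, with a pseudocount of 0.1 they were 331, 342, 232 and 219, and with RLE scaling 294, 225, 205 and 154. Risers made up 56.2% of calls, 56.6% with RLE scaling, 45.5% with no filter and 49.2% with limma at a pseudocount of 0.1. Leaving out 1 library gave 121 to 250, 90 to 188, 105 to 189 and 79 to 166. Same-numbered samples deviated together with r of only 0.007, 0.003 and -0.001 over all tested genes. As 7967 of these genes lay under 1 CPM, such an r cannot decide whether a number marks a shared animal or day. With a replicate block in the 6 libraries the counts were 116, 107, 87 and 81. The difference between CKO and WT was called in 1809 genes with DESeq2, 1951 with limma on log2(FPKM + 1), 2938 in the 12 libraries alone and 2446 there with a replicate block, in 781 to 1059 without 1 WT library and in 789 to 956 without 1 CKO library. CKO growth gave 6351 calls in its libraries alone, 5814 with the block, 2499 to 2998 without 1 of its own 6 libraries and 3542 to 3742 without 1 WT library. The causes of these shifts were not tested. The share of genes of at least 20 CPM whose interval lay within 2-fold was 75.7% to 89.8% under all settings. Of the 537 calls, 530 were also made by DESeq2, 513 with RLE scaling, 424 in the 6 libraries alone and 179 with the block. For the 24 genes of largest change, 302 of 336 values under alternatives kept direction and call, 34 lost the call and 0 turned direction. The median change of all genes moved by at most 0.05 under the settings run, and between 1 and 7 of 42 list medians changed sign in a setting. Levels under 1 CPM were poorly resolved, with a median SE of 1.23 against 0.178 at 100 CPM and more. The alternatives for CKO growth and for the interval share were chosen after seeing the data.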

Other observations

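Calls were not spread evenly over abundance. Under 1 CPM 49 of 7967 tested genes were called (0.615%), from 5 to 20 CPM 163 of 3452 (4.72%) and at 100 CPM and more 64 of 2034 (3.15%). By annotation class 411 of 15201 protein-coding genes (2.70%), 59 of 3959 lncRNA genes (1.49%) and 55 of 2192 pseudogenes (2.51%) were called. Pseudogene calls may hold reads of a parent gene.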
